A study of Mus musculus with 12 samples.

Results

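Mouse primary neuronal cultures exposed to citalopram were compared with cultures exposed to either of the tricyclic antidepressants amitriptyline and imipramine. The arrays were chosen by their titles: 2 citalopram arrays (10 µM), 2 amitriptyline arrays (5 µM) and 2 imipramine arrays (5 µM), 6 of the 12 arrays of the study. All 23521 probe sets that carry exactly 1 gene symbol, of 41345 in all, entered the comparison, for 22180 genes. Cultures of every group came from the brains of embryos of ICR (CD-1) mice, an outbred stock. They were kept in serum-free neuronal medium, received the drug at day in vitro 3 and were harvested 48 h later, at day in vitro 5. RNA was read on Affymetrix whole-transcript arrays, whose deposited values are on a log2 scale, so a difference of 1 is a doubling. The 2 control arrays entered no difference between citalopram and the tricyclics and no test, and their levels are given beside genes and lists as a description; the labels used here do not state what was added to the control cultures. Because citalopram was given at 10 µM and the tricyclics at 5 µM, drug and concentration cannot be told apart in any difference below. The labels leave unsaid whether a group's replicates were independent cultures, so a p-value here covers the spread between samples that may be technical.

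Citalopram is a selective serotonin reuptake inhibitor: it blocks the serotonin transporter and has little action on the noradrenaline transporter. Amitriptyline and imipramine block both transporters and also bind histamine, muscarinic and adrenergic receptors and sodium channels. The tricyclics share a fused ring system with a basic side chain and differ in its central part, a dibenzocycloheptene in amitriptyline and a dibenzazepine in imipramine, whereas citalopram carries its basic side chain on a phthalane. Cultures from embryonic brain hold mostly young neurons, beside glial precursors, dividing progenitors and some microglia.

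The neuronal label was checked against markers. All 14 neuronal markers lay above the floor used here for low values (log2 5.70, the 30th percentile of all probe sets). Snap25, a synaptic vesicle fusion protein, read 12.77 and 12.73 in citalopram cultures, 12.62 and 12.68 in amitriptyline cultures, 12.65 and 12.62 in imipramine cultures and 12.67 and 12.73 in control cultures. Of the markers of other cells, 17 of 18 astrocyte markers, 15 of 15 radial glia and progenitor markers, 12 of 13 oligodendrocyte lineage markers, 12 of 13 microglia and macrophage markers, 11 of 12 fibroblast and pericyte markers and 9 of 12 endothelial markers lay above the floor, as did 78.3% of all 22180 genes, so these counts by themselves do not show that a cell type was present. The only erythroid marker with a usable probe set, Hbb-y, lay below it.

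No gene passed the test between citalopram and the tricyclics. In limma with Benjamini-Hochberg adjustment, 0 of 23521 probe sets (0%) had an adjusted p under 0.05, and the lowest adjusted p was 0.887. At an unadjusted p under 0.05 there were 1249 probe sets (5.31%), of which 567 (2.41%) were higher and 682 (2.9%) lower in citalopram cultures. Differences were small. The median absolute difference was 0.0625 log2 units, and the central range from the 5th to the 95th percentile ran between -0.195 and 0.18. A difference of at least 0.5 was met by 88 probe sets (0.374%), 19 of them higher and 69 lower under citalopram, but only 17 of the 88 lay above the floor. The half-width of the 95% interval was 0.192 log2 units for the median probe set, so changes well below that size were not detectable with these arrays. That interval is for a probe set taken alone, without adjustment over all probe sets. Larger differences also missed the threshold, such as Cdr1 at -0.70 (adjusted p = 0.887 in limma).

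Each tricyclic taken alone gave the same outcome. Against amitriptyline, 0 probe sets (0%) passed, with a lowest adjusted p of 0.677 in limma and 1384 (5.88%) at an unadjusted p under 0.05. Against imipramine, 0 (0%) passed, with a lowest adjusted p of 0.92 and 1188 (5.05%) at an unadjusted p under 0.05. Amitriptyline and imipramine, which were given at the same concentration and differ in their ring system, also gave 0 (0%), with a lowest adjusted p of 0.781 and 1392 (5.92%) at an unadjusted p under 0.05. With the 3 pairs of drugs adjusted together, the lowest adjusted p was 0.861 and 0 passed. A difference of at least 0.5 was met by 202 probe sets (0.859%) between citalopram and amitriptyline, 118 (0.502%) between citalopram and imipramine and 176 (0.748%) between amitriptyline and imipramine. The median absolute difference was 0.075 between citalopram and amitriptyline, 0.075 between citalopram and imipramine and 0.08 between amitriptyline and imipramine. These comparisons share arrays. A p that misses the threshold does not show that the drugs act alike.

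The arrays themselves were about as far apart within a tricyclic as between drugs. The SD of the difference between 2 arrays was 0.163 for the citalopram replicates, 0.199 for the amitriptyline replicates and 0.203 for the imipramine replicates. The 8 pairs of a citalopram and a tricyclic array lay between 0.169 and 0.214, and 7 of them were closer than the imipramine replicates were to each other. Imipramine replicate 1 stood nearer to the citalopram arrays (0.172 and 0.169) than to imipramine replicate 2 (0.203). On the first principal component of the 6 arrays, which held 29.1% of the variance, citalopram scored 12.9 and 4.29, amitriptyline -0.92 and -10.9, and imipramine 9.93 and -15.4, so the groups were interleaved.

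**Figure D1:**
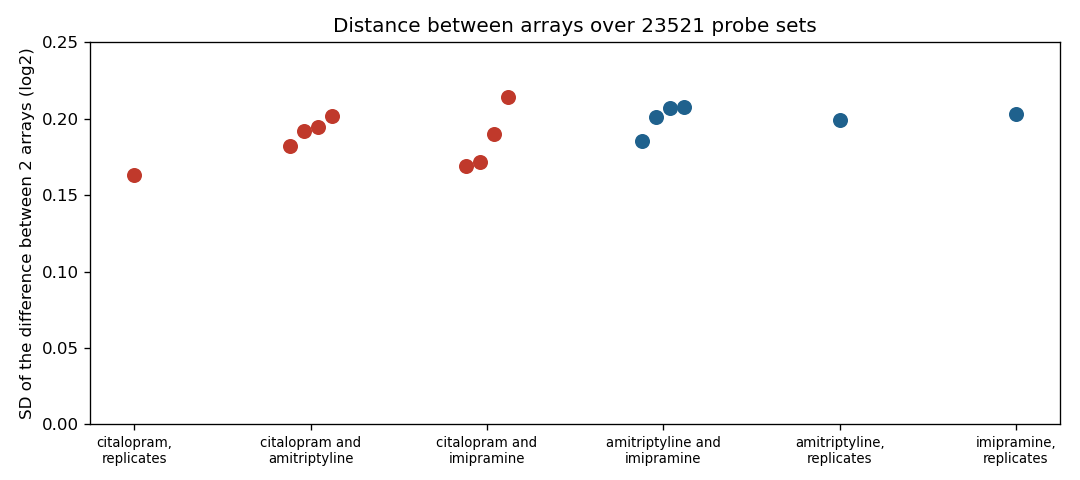
Distance between pairs of arrays, as the SD of their log2 difference over all probe sets with 1 symbol (vertical axis); each point is a pair of arrays, by the drugs of the pair (horizontal axis). The citalopram replicates are the closest pair at 0.163, and the citalopram and tricyclic pairs (0.169 to 0.214) overlap the replicate distances of amitriptyline (0.199) and imipramine (0.203).

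Without a model, both citalopram arrays lay above all 4 tricyclic arrays on 1680 probe sets (7.14%) and below all 4 on 1382 (5.88%). Of the 18400 probe sets above the floor, these were 1373 (7.46%) and 998 (5.42%). On the 1373, the control mean lay between the citalopram and tricyclic means for 675 (49.2%). The citalopram mean lay between control and tricyclics for 346 (25.2%), and the tricyclic mean between control and citalopram for 352 (25.6%). On the 998, the control mean lay between for 429 (43%). The citalopram mean lay between control and tricyclics for 207 (20.7%), and the tricyclic mean between control and citalopram for 362 (36.3%). With 2 arrays against 4, an exact two-sided permutation test over samples cannot give a p below 0.0667.

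Among genes with lower levels under citalopram, Cdr1 had the largest difference of the 12 with the lowest p. None of the 12 passed, and their adjusted p in limma was 0.887 to 0.926. Their differences ran between -0.70 and -0.28, or 0.616 to 0.824 times the tricyclic level. The citalopram arrays did not overlap the tricyclic arrays on any of them, which is part of how low p-values arise and no separate result. Cdr1, the locus known in brain for the circular antisense RNA Cdr1as, read 9.17 and 9.28 in citalopram cultures, 9.95 and 10.15 in amitriptyline cultures, 9.81 and 9.79 in imipramine cultures and 10.28 and 9.70 in control cultures. Both citalopram arrays were therefore the lowest of the 8, with a difference of -0.70 (SE 0.08). With a trended and robust prior, Cdr1 was the only probe set with an adjusted p under 0.05 in limma (adjusted p = 0.00394), while over the other alternatives its adjusted p ranged between 0.158 and 1. The labels and files used here do not name the strand that the probe set reads, so the sense transcript and Cdr1as cannot be told apart.

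Ero1a, Kdelr3, Ostn and Adm2 were also among the 12, and they are given singly, since they form no fixed list. Ero1a, the oxidase that renews protein disulfide isomerase in the endoplasmic reticulum, read 7.65 and 7.62 in citalopram cultures, 7.87 and 8.04 in amitriptyline cultures, 8.22 and 8.01 in imipramine cultures and 7.54 and 7.56 in control cultures. Citalopram lay between control and the tricyclics, with a difference of -0.40 (SE 0.09). A second probe set of Ero1a, of higher mean (10.78 against 7.90), had a smaller difference of -0.165. Kdelr3, a receptor that returns chaperones to the endoplasmic reticulum, read 8.65 and 8.50 in citalopram cultures, 8.77 and 8.85 in amitriptyline cultures, 8.98 and 8.95 in imipramine cultures and 8.24 and 8.47 in control cultures. It showed the same order, with a difference of -0.31 (SE 0.07). Ostn, a secreted peptide that binds the natriuretic peptide clearance receptor, read 6.76 and 7.0 in citalopram cultures, 7.21 and 7.24 in amitriptyline cultures, 7.45 and 7.42 in imipramine cultures and 5.62 and 6.18 in control cultures. Ostn was above control in all drug cultures and lowest of these under citalopram, by -0.45 (SE 0.08). Adm2, a peptide of the calcitonin family, read 7.17 on both citalopram arrays, 7.37 and 7.43 in amitriptyline cultures, 7.51 and 7.49 in imipramine cultures and 6.81 and 7.09 in control cultures, a difference of -0.28 (SE 0.06). Cdsn, an adhesion protein of skin, had the same order of groups, with 8.13 and 8.10 in citalopram cultures, 8.50 and 8.51 in amitriptyline cultures, 8.70 and 8.38 in imipramine cultures and 6.90 and 7.50 in control cultures.

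Lilrb4a, Igsf6 and Cd53 are known from myeloid cells and form no fixed list either. Lilrb4a, an inhibitory receptor, differed by -0.39 (SE 0.06), Igsf6, an immunoglobulin superfamily receptor, by -0.31 (SE 0.07), and Cd53, a leukocyte tetraspanin, by -0.32 (SE 0.07). Ly96, the partner of Toll-like receptor 4, was among the 8 largest differences, at -0.52 (SE 0.13). The control replicates were far apart on several of them: Lilrb4a read 6.08 and 6.06 in citalopram cultures, 6.36 and 6.36 in amitriptyline cultures and 6.61 and 6.49 in imipramine cultures, but 6.89 and 5.37 in control cultures. For 6 of the 12 genes the 2 control arrays differed from each other by more than citalopram and the tricyclics did, and for Adm2 both differences were 0.28. The 13 measured microglia and macrophage markers had a median difference of -0.025, with 5 higher, 8 lower and 0 passing; their mean level relative to control was -0.018 and -0.055 in citalopram cultures, 0.024 and -0.033 in amitriptyline cultures and 0.019 and -0.112 in imipramine cultures. The part of these cells in the differences was not tested.

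The other genes of the 12 were the fatty acid hydroxylases Cyp4f37 (-0.40) and Cyp4f13 (-0.34), Bex4 (-0.28) and ND6 (-0.56), a complex I subunit encoded by mitochondrial DNA. A second probe set of Bex4, of higher mean (9.21 against 7.01), differed by -0.1. ND6 read 8.93 and 8.72 in citalopram cultures, 9.54 and 9.94 in amitriptyline cultures, 9.02 and 9.03 in imipramine cultures and 9.64 and 8.67 in control cultures. Its difference was thus mostly against amitriptyline, and the control arrays spanned nearly the whole range. Zfp972 (-0.51), Slc22a13b (-0.42) and Srsy (-0.43) completed the 8 largest differences. Srsy is a multicopy gene of the Y chromosome whose other 6 probe sets differed by -0.345 to -0.263, and it read 5.97 and 6.24 in citalopram cultures, 7.03 and 6.49 in amitriptyline cultures, 6.34 and 6.28 in imipramine cultures and 7.09 and 5.48 in control cultures; the labels used here do not state the sex of the embryos.

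Among genes with higher levels under citalopram, none of the 12 with the lowest p passed, and their adjusted p in limma was 0.887 to 0.926. Their differences ran between 0.2525 and 0.5275, or 1.19 to 1.44 times the tricyclic level. Apol8, of the apolipoprotein L family, read 6.44 and 6.45 in citalopram cultures, 6.13 and 6.09 in amitriptyline cultures, 5.92 and 5.89 in imipramine cultures and 5.93 and 6.21 in control cultures, a difference of 0.44 (SE 0.06). Apol9b, of the same family, read 6.21 and 6.15 in citalopram cultures, 5.97 and 5.85 in amitriptyline cultures, 5.59 and 5.20 in imipramine cultures and 5.51 and 5.85 in control cultures, the largest positive difference of a named gene at 0.53 (SE 0.12). On both, the citalopram arrays were the highest of all 8. Kif14, a motor protein of cell division, had a different order, with 6.13 and 6.27 in citalopram cultures, 5.56 and 5.79 in amitriptyline cultures, 5.85 and 5.90 in imipramine cultures and 6.19 and 6.40 in control cultures; here citalopram lay near control. Cyp26b1, which degrades retinoic acid, differed by 0.27 (SE 0.06) and Col9a3, a collagen IX chain, by 0.29 (SE 0.07). The remaining genes were Cox8b (0.38), Brs3 (0.35), Heatr9 (0.40), Krtap5-5 (0.33), Lrrc17 (0.285), Myom2 (0.34) and Idi2 (0.25); for Idi2 the other probe set had the opposite sign, at -0.335. By size, Sh2d1b2 (0.42), Myh2 (0.395) and Vwc2 (0.375) were added. Several of these genes lay near the floor of 5.70. The mean over the 6 arrays was 5.825 for Myom2, 5.83 for Apol9b, 5.855 for Heatr9, 5.92 for Kif14 and 5.97 for Cox8b. It was highest for Krtap5-5 (7.06) and Col9a3 (7.02). Tricyclic arrays of Apol9b (5.59 and 5.20), Heatr9 (5.61 and 5.57), Kif14 (5.56) and Myom2 (5.58) lay below the floor. Another tricyclic array of Myom2 (5.70) lay at it.

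**Figure D2:**
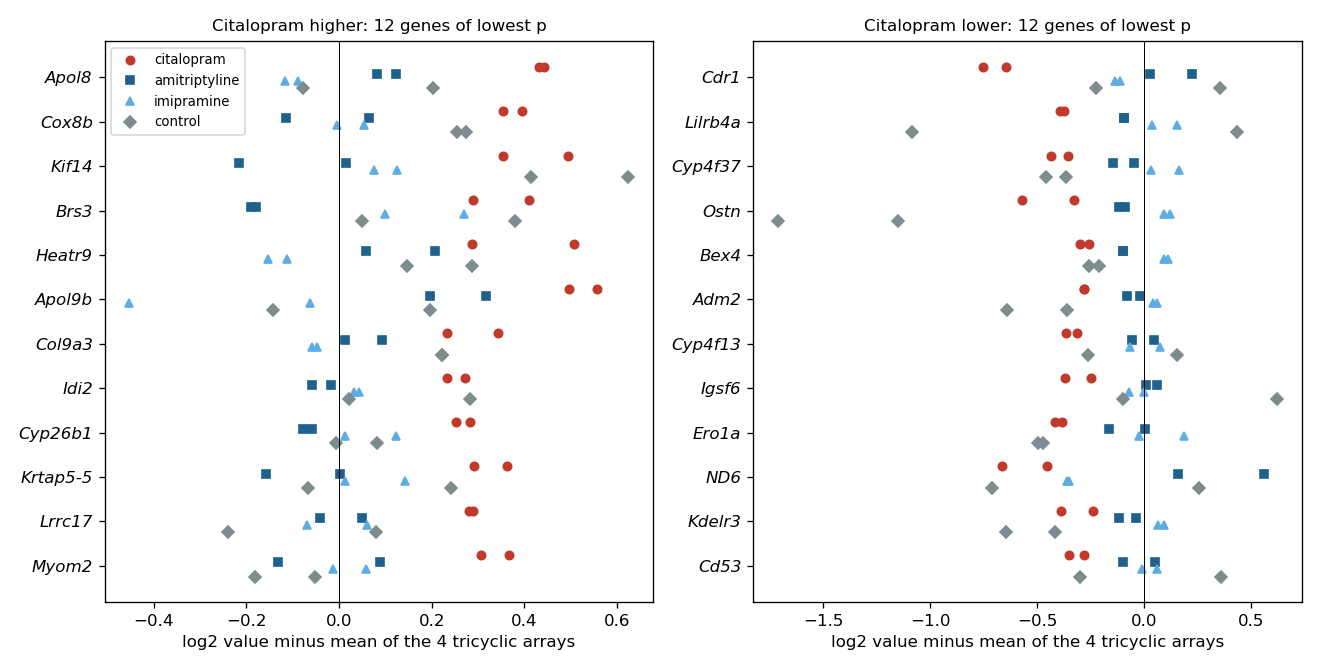
Level on each array minus the mean of the 4 tricyclic arrays (log2, horizontal axis) for the 12 genes of lowest p in each direction, with citalopram, amitriptyline, imipramine and control arrays as separate symbols. Citalopram points stand apart from the tricyclics by choice of the genes; for Cdr1 and Apol8 they also lie outside the control arrays, and for Ostn and Ero1a between control and the tricyclics.

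Promoter sequence is shown for Atf3 and Kdelr3, named genes on which both citalopram arrays lay below all tricyclic arrays and whose windows hold the element searched. The windows run from 250 bases before to 50 after the gene's start, from RefSeq on GRCm38.p6, 5′ to 3′ on the gene's strand, and capitals mark the match. Atf3 lies at chr1:191183284-191183583 on the minus strand and holds the C/EBP and ATF4 composite element TGATGNAA, read on the strand opposite to the gene. Kdelr3 lies at chr15:79516158-79516457 on the plus strand and holds the unfolded protein response element TGACGTGG, also on the opposite strand.
Atf3: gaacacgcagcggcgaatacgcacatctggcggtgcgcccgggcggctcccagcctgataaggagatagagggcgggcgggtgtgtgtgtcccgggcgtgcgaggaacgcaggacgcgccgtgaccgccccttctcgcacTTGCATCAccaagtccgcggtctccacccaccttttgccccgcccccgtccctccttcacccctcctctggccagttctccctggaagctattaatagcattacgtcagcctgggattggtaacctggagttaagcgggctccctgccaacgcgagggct
Kdelr3: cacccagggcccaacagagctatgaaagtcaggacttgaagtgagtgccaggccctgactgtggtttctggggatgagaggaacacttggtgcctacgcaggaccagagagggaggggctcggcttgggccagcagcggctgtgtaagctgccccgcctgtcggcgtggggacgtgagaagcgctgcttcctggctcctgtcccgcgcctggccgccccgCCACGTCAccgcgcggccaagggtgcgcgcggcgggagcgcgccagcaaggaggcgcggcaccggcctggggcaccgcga
Both strands were searched. Of 32851 mouse promoter windows, 3.97% held TGATGNAA and 0.676% held TGACGTGG. The cAMP response element TGACGTCA, held by 1.79%, was not in these windows, and none of the 3 was found in the windows of Ero1a and Adm2. A match is a description of the letters and shows no binding.

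Genes given by earlier results as responding to these drugs were then compared. The 22 genes were chosen from earlier results of these arrays, so their position relative to control is no independent evidence. All 22 lay on the same side of control in citalopram and tricyclic cultures, 13 above it and 9 below it. On 20 of the 22 the citalopram mean was closer to control than the tricyclic mean. The share was 45.4% over the 18400 probe sets above the floor. Those were not chosen as responding, so they are no like background. Wider lists went both ways: 26 of 35 cell cycle genes and 10 of 31 integrated stress response genes were closer under citalopram. Citalopram and the tricyclics share the control arrays in these counts. None of the 22 passed between drugs (smallest adjusted p = 0.926 in limma), and 6 had an unadjusted p under 0.05. The 95% interval of the difference included 0 for 16 of them.

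Of the 13 genes above control, all 13 had a negative difference, and the sizes were uneven. Over the probe sets above the floor 45.1% were negative, again no like background for chosen genes. Steap1, a metalloreductase, read 6.55 and 6.47 in citalopram cultures, 7.05 and 6.75 in amitriptyline cultures, 6.96 and 6.82 in imipramine cultures and 5.83 and 5.96 in control cultures, a difference of -0.39 (95% interval -0.63 to -0.14). Atf3, a stress-induced transcription factor, read 9.21 and 9.13 in citalopram cultures, 9.46 and 9.28 in amitriptyline cultures, 9.66 and 9.37 in imipramine cultures and 8.33 and 8.64 in control cultures, a difference of -0.27 (SE 0.10). On both genes the citalopram arrays lay between the control and tricyclic arrays without overlap. Hmox1, haem oxygenase, read 10.38 and 10.39 in citalopram cultures, 10.52 and 10.53 in amitriptyline cultures, 10.62 and 10.45 in imipramine cultures and 9.02 and 9.48 in control cultures. Its difference of -0.145 (95% interval -0.32 to 0.03) was small beside the distance of all drugs from control. Slc7a11, the cystine transporter, gave -0.1375 and a second probe set gave -0.3425. Pla2g2e, a secreted phospholipase (-0.25), Nupr1 (-0.1575) and Ier3 (-0.1525) also had no overlap. The prostaglandin synthase Ptgs2 (9.84 and 9.99 in citalopram cultures, 9.90 and 9.80 in amitriptyline cultures, 10.36 and 9.94 in imipramine cultures, 7.45 and 8.11 in control cultures) and the chemokine Cxcl2 overlapped between drugs, each with a difference of -0.085. Their intervals, -0.39 to 0.22 and -0.46 to 0.29, were wide. Nqo1, a quinone reductase, differed by 0.07 against amitriptyline and by -0.405 against imipramine. Srxn1 (-0.0775) and Ppp1r15a (-0.005) overlapped as well.

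Of the 9 genes below control, 7 had a positive difference. Gfap, the astrocyte intermediate filament, read 8.49 and 8.59 in citalopram cultures, 8.06 and 8.26 in amitriptyline cultures, 8.35 and 8.37 in imipramine cultures and 8.89 and 8.85 in control cultures, a difference of 0.28 (95% interval 0.09 to 0.47). Aqp4, the astrocyte water channel, read 7.98 and 7.83 in citalopram cultures, 7.55 and 7.75 in amitriptyline cultures, 7.72 and 7.77 in imipramine cultures and 8.71 and 8.64 in control cultures, a difference of 0.21 (SE 0.08). Both genes had the citalopram arrays between control and the tricyclics without overlap. The progenitor and proliferation genes Hes5 (0.095), Mki67 (0.1825), Cdk1 (0.075), Top2a (0.06), Ccnb2 (-0.0775) and Pclaf (-0.075) overlapped. So did Tmem100 (0.065), of the Notch and BMP list.

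**Figure D3:**
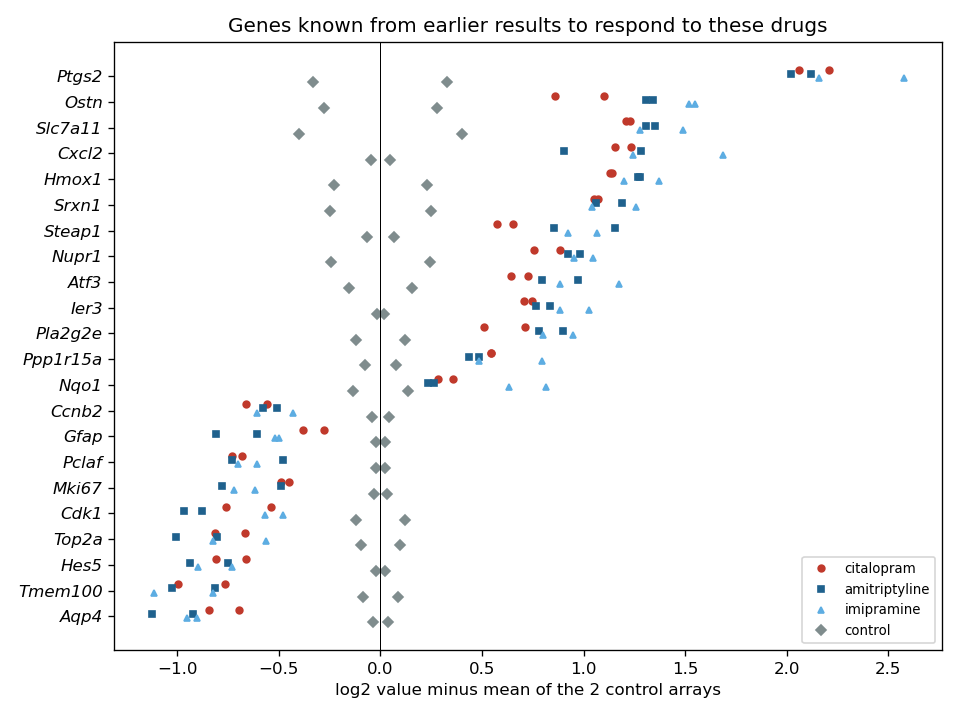
Differences from the control mean (log2) of the 22 genes given by earlier results as responding, 1 symbol per array. The drug arrays lie right of 0 for 13 genes and left of it for 9. The citalopram mean is closer to 0 than the tricyclic mean for 20 of the 22, which were chosen from earlier results of these arrays.

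All 18 astrocyte markers had a positive difference, with a median of 0.12, against 52.8% positive and a median of 0.0075 over all 22180 genes. The median was 0.14 against amitriptyline and 0.0925 against imipramine. None passed, and 4 had an unadjusted p under 0.05: Gfap (0.28), the bicarbonate transporter Slc4a4 (0.175), Ndrg2 (0.195) and Aqp4 (0.21). On 7 of the 18 (38.9%) both citalopram arrays lay above all tricyclic arrays, against 7.19% of all genes, and on 0 below, against 5.75%. Ndrg2 read 11.16 and 11.06 in citalopram cultures, 10.91 and 10.85 in amitriptyline cultures, 10.88 and 11.02 in imipramine cultures and 11.47 and 11.41 in control cultures. Slc4a4 read 8.58 and 8.68 in citalopram cultures, 8.44 and 8.47 in amitriptyline cultures, 8.48 and 8.43 in imipramine cultures and 8.41 and 8.67 in control cultures. Ndrg2 lay below control under every drug, whereas Slc4a4 under citalopram lay within the control range or just above it. The mean of the 18 markers relative to control was -0.163 and -0.199 in citalopram cultures, -0.359 and -0.293 in amitriptyline cultures and -0.302 and -0.272 in imipramine cultures, while the control arrays themselves differed from their mean by 0.0367. The citalopram mean was closer to control for 15 of 18 markers. Without Gfap and Aqp4, which earlier results had named, the median was 0.11 and 16 of 16 were positive, a choice made after seeing the data. With each array left out in turn the median ranged between 0.09 and 0.146, and 16 to 18 of the 18 were positive. In such bulk samples, fewer cells of a type and less RNA per cell cannot be told apart.

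**Figure D4:**
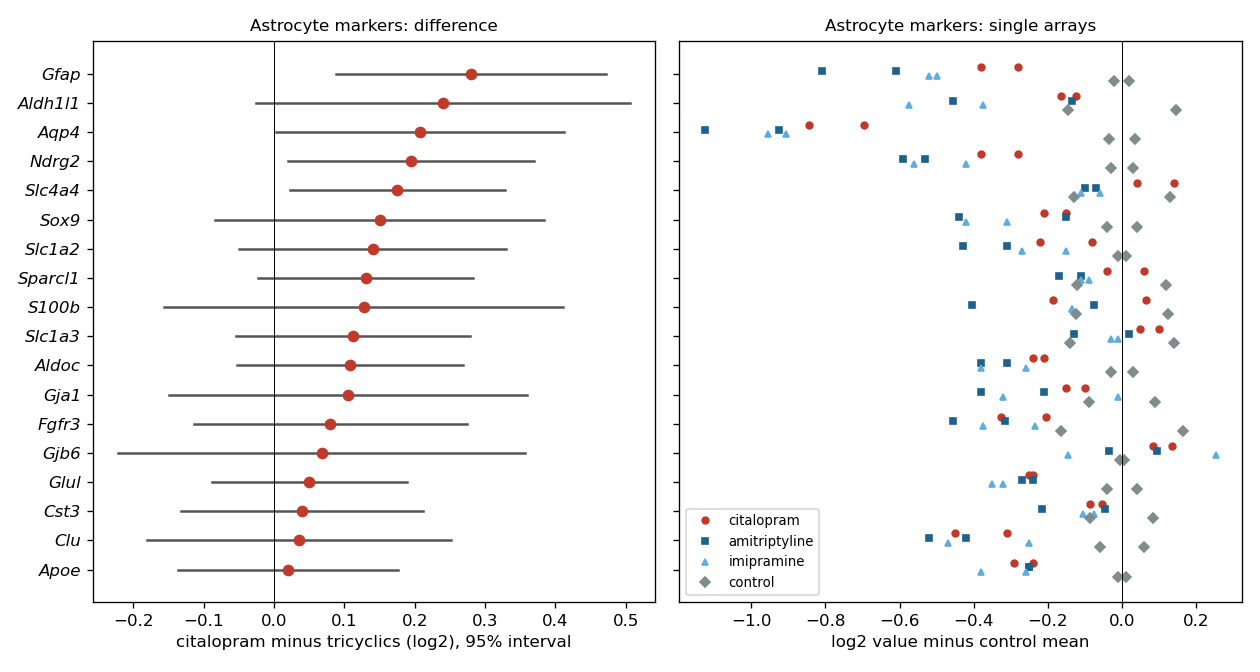
Left, citalopram minus tricyclics for 18 astrocyte markers (log2, points) with 95% intervals (lines); right, the level on each array minus the control mean (log2). All 18 differences lie above 0 (median 0.12), but only 4 intervals exclude 0, and single arrays of the drugs overlap on most markers.

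Other cell type markers were less uniform. Of 14 neuronal markers 12 had a positive difference, with a median of 0.054, and 4 lay above all tricyclic arrays and 0 below, against 7.19% and 5.75% of all genes. Nefm (0.1425), Snap25 (0.1075) and Elavl3 (0.0925) were among the 4. Of 15 radial glia and progenitor markers 11 were positive, with a median of 0.0425; Eomes, a factor of intermediate progenitors, differed by 0.25 (SE 0.08) and the Notch effector Hes1 by -0.17 (SE 0.07). Of 13 oligodendrocyte lineage markers 8 were positive, with a median of 0.04, among them Olig2 (0.245) and Cspg4 (0.1575). Olig2 read 9.85 on both citalopram arrays, 9.53 and 9.72 in amitriptyline cultures, 9.52 and 9.65 in imipramine cultures and 9.69 and 10.20 in control cultures. Fibroblast and pericyte markers had a median of 0.13, with 8 of 12 positive, and endothelial markers a median of 0.0125, with 6 of 12. None of these markers passed.

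Cell cycle genes lay below control under each of the 3 drugs and differed little between drugs. All 35 measured genes lay below the control mean in citalopram cultures, and 34 of 35 in tricyclic cultures, with array means relative to control of -0.437 and -0.425 under citalopram, -0.600 and -0.456 under amitriptyline and -0.483 and -0.387 under imipramine. Between citalopram and the tricyclics 25 of 35 differences were positive, the median was 0.045 and 0 passed. It was 0.105 against amitriptyline and -0.015 against imipramine, so the sign depended on the tricyclic. On 3 of the 35 both citalopram arrays lay above all tricyclic arrays and on 0 below, against 7.19% and 5.75% of all genes. These were the mitotic checkpoint kinase Bub1b (0.23, SE 0.07), the kinesin Kif23 (0.1575, SE 0.07) and Ect2 (0.19, SE 0.10).

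Integrated stress response genes lay above control under each of the 3 drugs, again with small differences between drugs. All 31 integrated stress response genes, which answer amino acid shortage and unfolded proteins, lay above control in citalopram cultures and in tricyclic cultures, with medians of 0.3 and 0.235. Between drugs the median was 0.04, 21 were higher, 10 lower and 0 passed; 5 lay above all tricyclic arrays and 5 below, against 7.19% and 5.75% of all genes. Cth, which makes cysteine, read 8.89 and 8.87 in citalopram cultures, 9.04 and 9.26 in amitriptyline cultures, 9.20 and 9.10 in imipramine cultures and 7.38 and 8.39 in control cultures, a difference of -0.27 (SE 0.08). Phgdh, the entry enzyme of serine synthesis, read 8.88 and 8.74 in citalopram cultures, 8.63 and 8.59 in amitriptyline cultures, 8.53 and 8.60 in imipramine cultures and 8.50 and 8.57 in control cultures, a difference of 0.22 (SE 0.07). Members of the list thus lay on both sides.

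Endoplasmic reticulum chaperones had a median of 0.01 (11 of 19 higher, among them Herpud1 at 0.1375), heat shock genes one of -0.03 (5 of 12 higher) and NRF2 antioxidant genes one of -0.0475 (7 of 20 higher). For NRF2 targets the median was 0.0075 against amitriptyline and -0.0825 against imipramine. Among oxidative phosphorylation genes, 38 of 49 had lower values under citalopram, with a median of -0.0375, 7 lay below all tricyclic arrays and 0 above. Over all genes 46.1% were lower, 5.75% lay below all tricyclic arrays and 7.19% above. Cycs, the electron carrier cytochrome c, read 11.04 and 11.09 in citalopram cultures, 11.15 and 11.14 in amitriptyline cultures, 11.29 and 11.21 in imipramine cultures and 11.26 and 11.18 in control cultures, a difference of -0.1325 (SE 0.06). The list's median was -0.01 against amitriptyline and -0.065 against imipramine, and 0 members passed.

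The targets of the drugs were compared next. Of 25 measured serotonin and noradrenaline transporter, enzyme and receptor genes 17 were higher under citalopram, with a median of 0.0325 and 0 passing. Slc6a4, the serotonin transporter that all 3 drugs block, read 6.38 and 6.21 in citalopram cultures, 6.13 and 5.79 in amitriptyline cultures, 5.93 and 6.21 in imipramine cultures and 6.85 and 6.37 in control cultures; the groups met at 6.21 and the difference was 0.28 (SE 0.13). Htr7, a serotonin receptor, read 6.87 and 7.04 in citalopram cultures, 6.71 and 6.79 in amitriptyline cultures, 6.76 and 6.62 in imipramine cultures and 6.81 and 6.79 in control cultures, a difference of 0.235 (SE 0.08) without overlap. The serotonin receptors Htr2c (0.1225) and Htr4 (0.1475) also had no overlap. Among 9 histamine and muscarinic receptors, which the tricyclics bind, 5 were higher and 4 lower. The histamine receptor Hrh1 differed by 0.175 (SE 0.07), Hrh2 by -0.22 (SE 0.08) and the muscarinic receptor Chrm4 by 0.1425 (SE 0.07). Of 22 voltage-gated sodium and calcium channel genes 12 were higher, with a median of 0.015; Scn9a differed by 0.1675 and Scn4b by 0.195. None of the channel genes passed.

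Synaptic genes had small positive medians. Of 24 presynaptic release genes 19 were higher, with a median of 0.059, and 6 lay above all tricyclic arrays and 0 below, against 52.8% higher, 7.19% above and 5.75% below over all genes. Slc17a7, a vesicular glutamate transporter, read 9.67 and 9.73 in citalopram cultures, 9.28 and 9.59 in amitriptyline cultures, 9.50 and 9.43 in imipramine cultures and 9.74 and 10.02 in control cultures, a difference of 0.25 (SE 0.10). Sv2b, a synaptic vesicle protein, differed by 0.205 (SE 0.08). For both, citalopram lay between control and the tricyclics. Ionotropic glutamate receptors had a median of 0.025, with Grin3a at 0.24 (SE 0.07), GABA genes one of 0.051, with the receptor subunit Gabrd at 0.1525 (SE 0.06), and potassium channels one of 0.035, with Kcnq3 at 0.1925 (SE 0.07). Neuropeptide genes had a median of 0.0125; Nptx1 (0.24), Nts (0.25) and Pdyn (0.27), which encode a pentraxin, neurotensin and prodynorphin, were the members of lowest p. Nts read 8.55 and 8.66 in citalopram cultures, 8.20 and 8.21 in amitriptyline cultures, 8.58 and 8.42 in imipramine cultures and 9.54 and 9.12 in control cultures. Of the tricyclic arrays only those of amitriptyline lay apart from citalopram, and every drug array lay below both control arrays.

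Signals between cells were mixed. Of 24 prostaglandin, cytokine and chemokine genes 10 were higher and 14 lower, with a median of -0.049; Ccl3 (-0.26) and Cxcl1 (-0.20) lay below all tricyclic arrays, while Cxcl10 had a difference of 0.28 with overlap. Of 24 neurotrophin and growth factor genes 18 were higher, with a median of 0.06, among them Ngfr (0.19) and Hgf (0.22). Lysosome and autophagy genes, of interest because all 3 drugs are amphiphilic amines that gather in lysosomes, had a median of -0.02, with 12 higher and 16 lower of 29. Their regulator Tfeb differed by 0.1975 (SE 0.07) and Gpnmb by -0.25 (SE 0.09). Sterol and fatty acid synthesis genes had a median of 0.026, with 19 of 26 higher. Drug handling genes had a median of 0.06, with the epoxide hydrolase Ephx1 at -0.22 (SE 0.06): it read 9.37 and 9.40 in citalopram cultures, 9.55 and 9.55 in amitriptyline cultures, 9.68 and 9.63 in imipramine cultures and 8.87 and 9.13 in control cultures. None of the genes in these lists passed.

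The mean level of a list put both citalopram arrays above all tricyclic arrays for 6 of the 37 lists and below them for 2. The 6 were the neuronal, astrocyte, radial glia, serotonin and noradrenaline, neurotrophin, and Notch and BMP lists, and the 2 were the erythroid list, which rests on Hbb-y alone, and oxidative phosphorylation. Over single probe sets the shares were 7.14% above and 5.88% below, which are no like background for means of many genes. Lists share genes, and all use the same 6 arrays, so the counts of lists are a description.

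**Figure D5:**
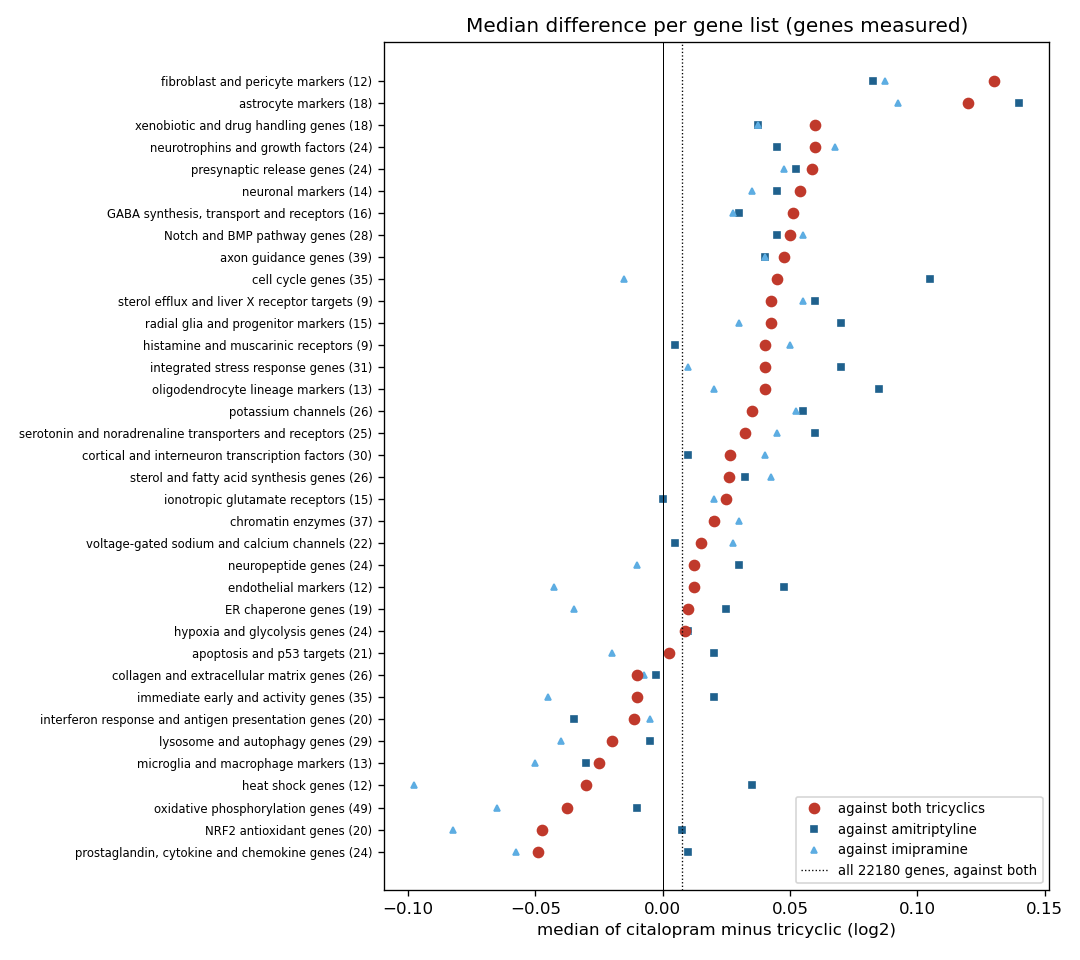
Median difference (log2) of each gene list for citalopram against both tricyclics, against amitriptyline and against imipramine, with the median over all genes (0.0075) as a dotted line and the number of genes in brackets; the erythroid list, of 1 gene, is left out. Astrocyte markers lie at 0.12 and oxidative phosphorylation genes at -0.0375; cell cycle genes lie at 0.105 against amitriptyline and at -0.015 against imipramine.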

How the data were processed

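The deposited table holds log2 values, rounded to 2 decimals, for 12 arrays. Per the submitters' processing notes, the authors used RMA in Affymetrix Expression Console, which corrects background, normalizes by quantiles and summarises probes; no version, setting or build was stated in what was used here. RMA values carry no counts, so the number of arrays limits the precision. Titles gave group and replicate number, and the treatment protocol gave dose and time.

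Names came from GEO's platform annotation, in which 23521 probe sets had 1 symbol, 1814 several and 16010 none. Of the first, 99.2% matched RefSeq by gene number, with 0 updates of the symbol. The members and the gene lists were chosen with earlier results of these data known. Only the 6 arrays compared entered limma 3.58.1 (R 4.3.3; lmFit and eBayes, a mean per drug, 3 residual and 3.13 prior degrees of freedom), with two-sided tests, Benjamini-Hochberg adjustment over all 23521 probe sets and calls under 0.05. Duloxetine and mirtazapine arrays were left out because earlier results found 1 array of each to stand apart. The fit was run on simulated data with planted changes and independent noise, as a check of the code. That check is no measure of which changes these arrays could detect. A gene in a list is its probe set of highest mean; genes of a list with no probe set of 1 symbol are not analysed here. Lists are described by counts and medians with no test.

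Named genes are, per direction and above the floor, the 12 of lowest p and the 8 largest differences without overlap, 22 genes given by earlier results as responding, and up to 4 members of lowest p per list; predicted genes, olfactory and vomeronasal receptors, pseudogenes and small RNAs were passed over. Alternatives were fits with 8 or all 12 arrays, filters at the 30th and 50th percentile, 1 probe set per gene, every probe set, a trended and robust prior, weighted arrays, a replicate block, a further quantile normalization, a minimum difference of 0.5 and each array left out in turn. Figures were drawn with matplotlib 3.10.9.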

Additional observations from a re-analysis of the deposited data

How the results depend on the processing

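The count of probe sets past the threshold was 0 under every alternative run for citalopram minus imipramine and amitriptyline minus imipramine. With the trended and robust prior it was 1 for citalopram minus the tricyclics and 1 for citalopram minus amitriptyline; both calls were Cdr1, lower under citalopram. It was 0 under the other alternatives, and each array left out in turn gave 0 to 0 in all 4 comparisons. The number at an unadjusted p under 0.05 ranged between 4 (a minimum difference of 0.5) and 2152 (every probe set) for citalopram minus the tricyclics. The 4 come from a test against a difference of 0.5 instead of 0, and the 2152 are of all 41345 probe sets. In the fit reported the number was 1249 of 23521 (5.31%). The replicate numbers were not shown to pair the arrays: the deviations of same-numbered arrays correlated at 0.132 between citalopram and amitriptyline, 0.138 between citalopram and imipramine and 0.0809 between amitriptyline and imipramine, and the replicate block gave 0 calls in each comparison. Both citalopram arrays lay outside the tricyclic arrays on 13% of probe sets, and on 12.8% to 14.8% under the alternatives.

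Of the single genes, 12 combinations of gene and alternative changed sign, all of them small differences. Ppp1r15a, -0.005 in the fit reported, was 0.0131 after a second quantile normalization. With each array left out in turn, the difference ranged between -0.0825 and 0.0725 for Ppp1r15a, -0.19 and 0.02 for Ptgs2, -0.195 and 0.025 for Cxcl2, -0.05 and 0.18 for Tmem100, -0.035 and 0.185 for Cdk1, -0.015 and 0.135 for Top2a, and -0.228 and 0.0025 for Emcn. The arrays whose omission turned a sign were both citalopram arrays, amitriptyline replicate 1 and imipramine replicate 1. List medians moved by more than the spread between replicates in 37 of 553 combinations of list and alternative, and kept their sign in 515. The cause of these changes was not tested. With 2 arrays a group, a lone array left after an omission is assumed to vary like the other groups.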

Other observations

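Small RNAs were passed over in the choice of named genes, and their families were looked at after the differences were seen. Of 81 probe sets of small nucleolar RNAs, which guide the modification of ribosomal and spliceosomal RNA, 72 had a lower level in citalopram cultures than in tricyclic cultures and 8 a higher one, with a median difference of -0.195, against 46.4% lower and a median of 0.0075 over all probe sets. Both citalopram arrays lay below all tricyclic arrays on 18 of the 81 (22.2%) and above on 0, against 5.88% below and 7.14% above over all probe sets. The median level relative to control was -0.205 and 0.085 in citalopram cultures, 0.115 and 0.09 in amitriptyline cultures, 0.09 and 0.16 in imipramine cultures and 0.105 and -0.105 in control cultures. Citalopram replicate 1 thus lay apart from citalopram replicate 2 on these transcripts, and the control arrays differed from each other as well. MicroRNA probe sets had a median difference of -0.04, with 316 of 498 lower, and clustered histone genes one of -0.005, with 25 of 49 lower. Olfactory receptors, of which 171 of 1108 probe sets lay above the floor, had a median of -0.034 and vomeronasal receptors one of -0.0425.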
